A study of Mus musculus with 13 samples.

Results

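The loss of Lmo2 was followed here at the haemangioblast stage, in the 3 RNAseq libraries of WT and the 3 of Lmo2-/- Flk-1+ cells, 6 of the 13 RNAseq libraries of the series. Of 45250 assembled loci, 12149 were longer than 200 bp and had at least 1 FPKM (a fragment density per transcript length and library size, as the authors normalised it) in at least 2 of these 6 libraries, and all 12149 were compared. The other RNAseq libraries were made from Tal1-/- Flk-1+ cells and from WT and Lmo2-/- haemogenic endothelium 1 (HE1).

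Mouse embryonic stem (ES) cells were differentiated as embryoid bodies, and cells carrying Flk-1, the VEGF receptor encoded by Kdr, were enriched with antibody-coupled magnetic beads. WT cells came from the CCB ES cell line, and Lmo2-/- cells came from an ES cell line that lacks Lmo2. With an ES cell line for each genotype, the effect of the genotype and a difference between the lines cannot be told apart. All ES cells had been kept on mouse embryonic fibroblast feeders and were moved to gelatin without feeders before differentiation. Neither genotype is labelled with a treatment. The 3 libraries of a genotype are deposited as 1 sample with 3 columns, numbered 0, 1 and 2, so p-values measure the spread between these libraries.

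LMO2 is a LIM domain protein that does not bind DNA itself. It bridges the basic helix-loop-helix factor TAL1 with its E protein partner, GATA factors and LDB1, and the assembled complex binds DNA at E-box and GATA motifs. Haemangioblasts are mesodermal cells that arise from the primitive streak and can form blood, endothelium and smooth muscle, and they share a Flk-1+ ancestor with cardiac mesoderm.

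The 6 libraries did not group by genotype. Over the 12149 genes, on the log2(FPKM + 1) scale, WT library 0 and Lmo2-/- library 1 correlated with each other at r = 0.865 and with the other 4 libraries at 0.814 to 0.851, while those 4 correlated among themselves at 0.871 to 0.911. WT 0 and Lmo2-/- 1 lay together above the other 4 libraries in 2142 genes (17.6%) and below them in 1352 genes (11.1%). These are more genes in each direction than separated by genotype. A split of 2 against 4 libraries arises more often by chance than the split by genotype, so the counts are not directly comparable. WT 0 and Lmo2-/- 1 also listed the fewest genes above 0 FPKM, 14482 and 13345, against 15025 to 15641 in the other 4. Their part in the results was not tested. The medians of the gene lists and the values of some genes are therefore also given without both, a comparison of 2 against 2 libraries chosen after seeing the data.

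**Figure D1:**
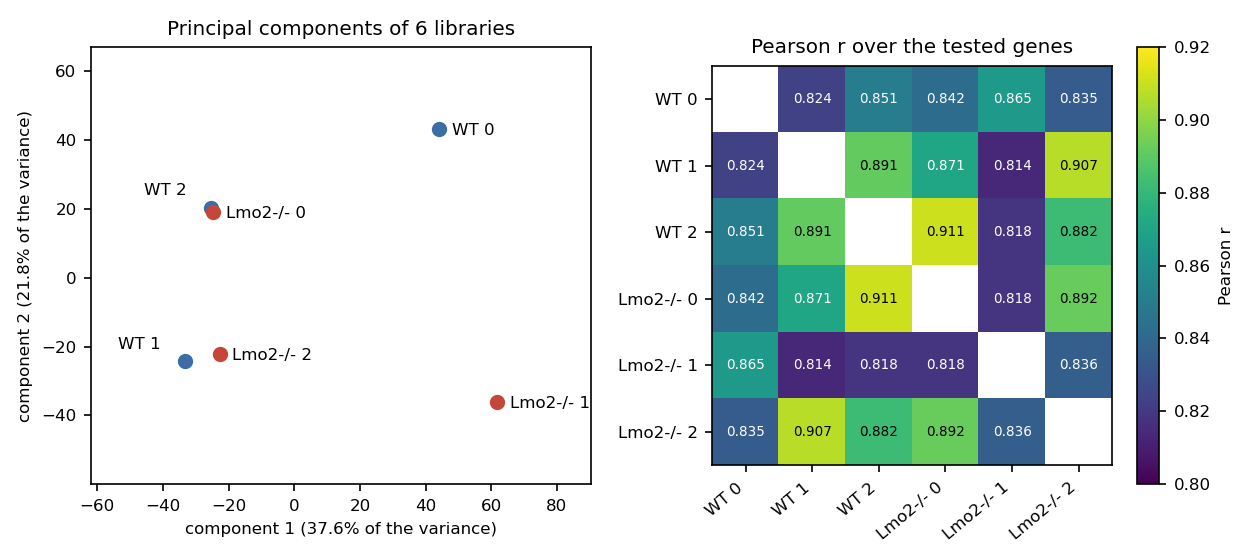
Principal components of the 6 Flk-1+ libraries on log2(FPKM + 1) over 12149 genes (left; WT in blue, Lmo2-/- in red, axes give the share of variance) and Pearson r between each pair of libraries over the same genes (right). Component 1, with 37.6% of the variance, sets WT 0 and Lmo2-/- 1 apart from the other 4 libraries.

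The targeted gene was low in every Lmo2-/- library. Lmo2 lies on chromosome 2 of GRCm38 from 103957986 to 103981878 on the plus strand. It had 22.8, 30.8 and 21.6 FPKM in WT cells and 2.63, 6.48 and 2.17 FPKM in Lmo2-/- cells. The log2 fold change of Lmo2-/- over WT was -2.55 (SE 0.40) on the log2(FPKM + 1) scale, and the groups did not overlap. Lmo2-/- library 1, with the highest of the 3 low values, was one of the libraries that stood apart. The assembled interval of Lmo2 also holds Fbxo3, which has a value of its own, 7.14, 3.53 and 5.86 FPKM in WT and 5.95, 2.91 and 4.18 FPKM in Lmo2-/-, and these groups overlapped. Of 25 other tested loci within 2 Mb of Lmo2, 0 were higher and 3 were lower in every Lmo2-/- library, against 4.02% and 4.14% of all tested genes. The 3 were Nat10, Cstf3 and Rcn1, with log2 fold changes of -0.71, -0.39 and -0.38, while the median of the 25 was -0.26.

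The sorted cells expressed the gene of the Flk-1 gate in both genotypes, while other haemangioblast markers were mixed. Kdr itself had 252, 100.2 and 115 FPKM in WT cells and 106, 151 and 101 FPKM in Lmo2-/- cells, and the groups overlapped. The apelin receptor gene Aplnr, which marks early mesoderm, had 94.2, 28.7 and 36.2 FPKM in WT cells and 34.8, 44.6 and 32.4 FPKM in Lmo2-/- cells and also overlapped. Of the other haemangioblast markers, Etv2 was lower in every Lmo2-/- library. Tal1 was below every WT library in Lmo2-/- 0 and 2 but not in Lmo2-/- 1. Both are given below. The blood markers Hbb-bh1, Hba-x and Ptprc and the neural marker Sox1 were listed at 0 in all 6 libraries. The blood markers Itga2b and Gata1 were above 0 in every WT library. They reached 5.54 and 1.29 FPKM in WT cells and 2.13 and 0.129 FPKM in Lmo2-/- cells. Neural Pax6 was above 0 only in Lmo2-/- 2, at 0.441 FPKM. Markers of other cell types were mixed. Cardiomyocyte Nkx2-5 and Myh6, endodermal Foxa2 and ES cell Zfp42 stayed at or below 0.547 FPKM, while cardiac Myl7 had 8.02, 7.54 and 11.7 FPKM in WT cells and 6.24, 23.2 and 11.1 FPKM in Lmo2-/- cells and ES cell Nanog had 3.298, 1.42 and 3.69 FPKM in WT cells and 1.88, 0.144 and 0.987 FPKM in Lmo2-/- cells. Endodermal Sox17 reached 1.82 FPKM in WT 0, and Afp was listed above 0 only in Lmo2-/- 2, at 1.71 FPKM.

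No gene passed the test across all genes. With limma and Benjamini-Hochberg adjustment, 0 of 12149 genes (0%) had an adjusted p below 0.05, the smallest being 0.124 for Fli1. An unadjusted p below 0.05 was found for 468 genes, of which 245 (2.02%) were higher and 223 (1.84%) lower in Lmo2-/- cells. Together these shares are below the 0.05 of genes that such a p would mark without any difference. Without counts in the files, the depth of the libraries is unknown. What follows therefore describes levels and their separation. A gene is called separated when every Lmo2-/- library lay on the same side of every WT library; its exact permutation p (two-sided) is then 0.10, the smallest that 3 against 3 libraries allow.

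Across all tested genes, 488 (4.02%) were higher and 503 (4.14%) lower in every Lmo2-/- library. If genotype had no effect and any library could carry any label, a share of 0.10 of genes would still be separated, counting both directions. The observed shares together stay below this. The number of separated genes is therefore no evidence of a genotype effect by itself, and it cannot tell which of them follow from genotype. Among the 4534 genes with a mean above 10 FPKM in at least 1 group, 137 (3.02%) were higher and 182 (4.01%) lower in every Lmo2-/- library. Their median log2 fold changes were 0.71 and -0.64, with signs set by the choice of genes, and the median of all tested genes was -0.01. By at least 1 on the log2 scale, 29 were higher and 32 lower. Without WT 0 and Lmo2-/- 1 the medians were 0.69 and -0.60. A gene separated over 6 libraries keeps its direction in any part of them, so these signs were fixed by the choice and test nothing.

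**Figure D2:**
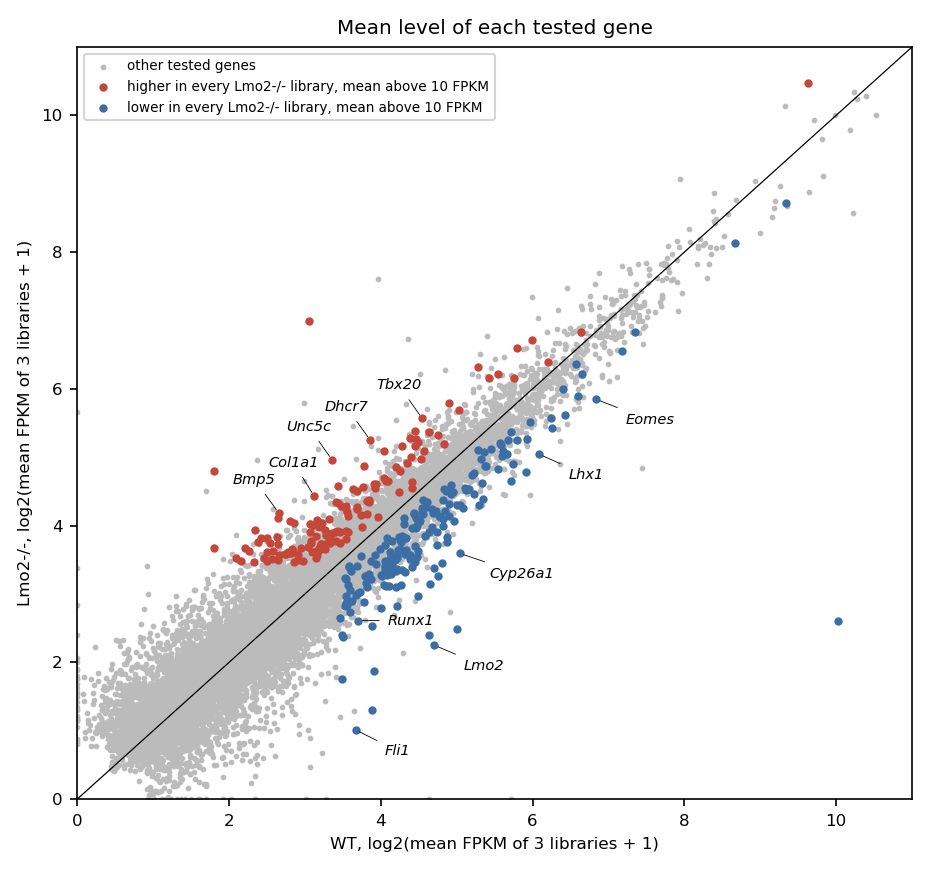
Mean level of each tested gene in WT (x axis) and Lmo2-/- (y axis) Flk-1+ cells, as log2 of the mean FPKM of 3 libraries + 1. Red and blue points are the 137 and 182 genes with a mean above 10 FPKM that were higher or lower in every Lmo2-/- library, grey points the other tested genes, of which 11 lie beyond the axes; Fli1 and Lmo2 lie furthest below the diagonal among the labelled genes.

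Most tested transcription factors of blood were lower in Lmo2-/- cells. Of 8 tested haematopoietic transcription factors, 6 were lower and 0 higher in every Lmo2-/- library (75%, against 4.14% of all tested genes), with a median log2 fold change of -1.04. Without WT 0 and Lmo2-/- 1 the median was -0.78, and 7 of the 8 were lower in both remaining Lmo2-/- libraries than in both WT libraries. Of all tested genes, 14.8% were. The 6 genes separated over all libraries are among the 7 by construction, so this count adds no support of its own. Most of these genes had low levels, and 8 of the 16 listed genes were tested. Ikzf1, Nfe2, Myb and Gata1 reached 1 FPKM in WT libraries only. They thus passed the filter through the group where they were high, and the 75% was partly set by the filter. Fewer cells of a type cannot be told apart from less RNA per cell in such bulk libraries.

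Fli1, an ETS factor needed for endothelial and blood development, had 14.03, 11.5 and 9.62 FPKM in WT cells and 1.195, 0.928 and 0.926 FPKM in Lmo2-/- cells. The groups were far apart, with means of 11.7 ± 2.21 and 1.02 ± 0.155 FPKM (SD, n = 3 each), and the log2 fold change was -2.64 (SE 0.34; limma adjusted p = 0.124), or -2.49 without WT 0 and Lmo2-/- 1. It lies on chromosome 9 from 32422204 to 32542861 of GRCm38, as assembled by the authors. Runx1, the factor that drives the endothelial-to-haematopoietic transition, had 17.2, 10.8 and 8.15 FPKM in WT cells and 7.200, 3.69 and 4.44 FPKM in Lmo2-/- cells. Its highest Lmo2-/- value lay just below its lowest WT value, and the log2 fold change was -1.08 (SE 0.39). Hhex, a homeobox factor of early endothelial and blood precursors, had 6.12, 4.79 and 4.23 FPKM in WT cells and 0.519, 2.26 and 0.704 FPKM in Lmo2-/- cells, a log2 fold change of -1.56 (SE 0.41), with the WT libraries close together and Lmo2-/- 1 the highest of the low group.

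The lymphoid factor gene Ikzf1 had 3.12, 3.600 and 1.99 FPKM in WT cells and 0.599, 0.354 and 0.964 FPKM in Lmo2-/- cells (log2 fold change -1.24, SE 0.38). For Nfe2, a partner in globin gene control, the WT libraries had 1.88, 1.202 and 0.418 FPKM and all 3 Lmo2-/- libraries were listed at 0. Myb, which maintains progenitor growth, had 1.99, 1.27 and 1.42 FPKM in WT cells and 0.789, 0 and 0.104 FPKM in Lmo2-/- cells. These 3 genes were separated, at levels of a few FPKM or less. Gata1, the erythroid master factor, was separated at the same low level, from 1.29, 1.26 and 0.222 FPKM in WT to 0, 0 and 0.129 FPKM in Lmo2-/-. Gfi1b and Mecom overlapped between the genotypes, and Mecom had the only positive log2 fold change of the list, 0.28. The surface gene Itga2b, which encodes CD41, an early mark of blood commitment, had 1.59, 5.54 and 3.79 FPKM in WT cells and 0.9300, 0.306 and 2.13 FPKM in Lmo2-/- cells, with overlapping groups. Of the 4 tested surface genes of blood cells, Itga2b, Kit, Cd44 and Epor, 0 were separated, with a median log2 fold change of -0.25 (-0.02 without WT 0 and Lmo2-/- 1).

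**Figure D3:**
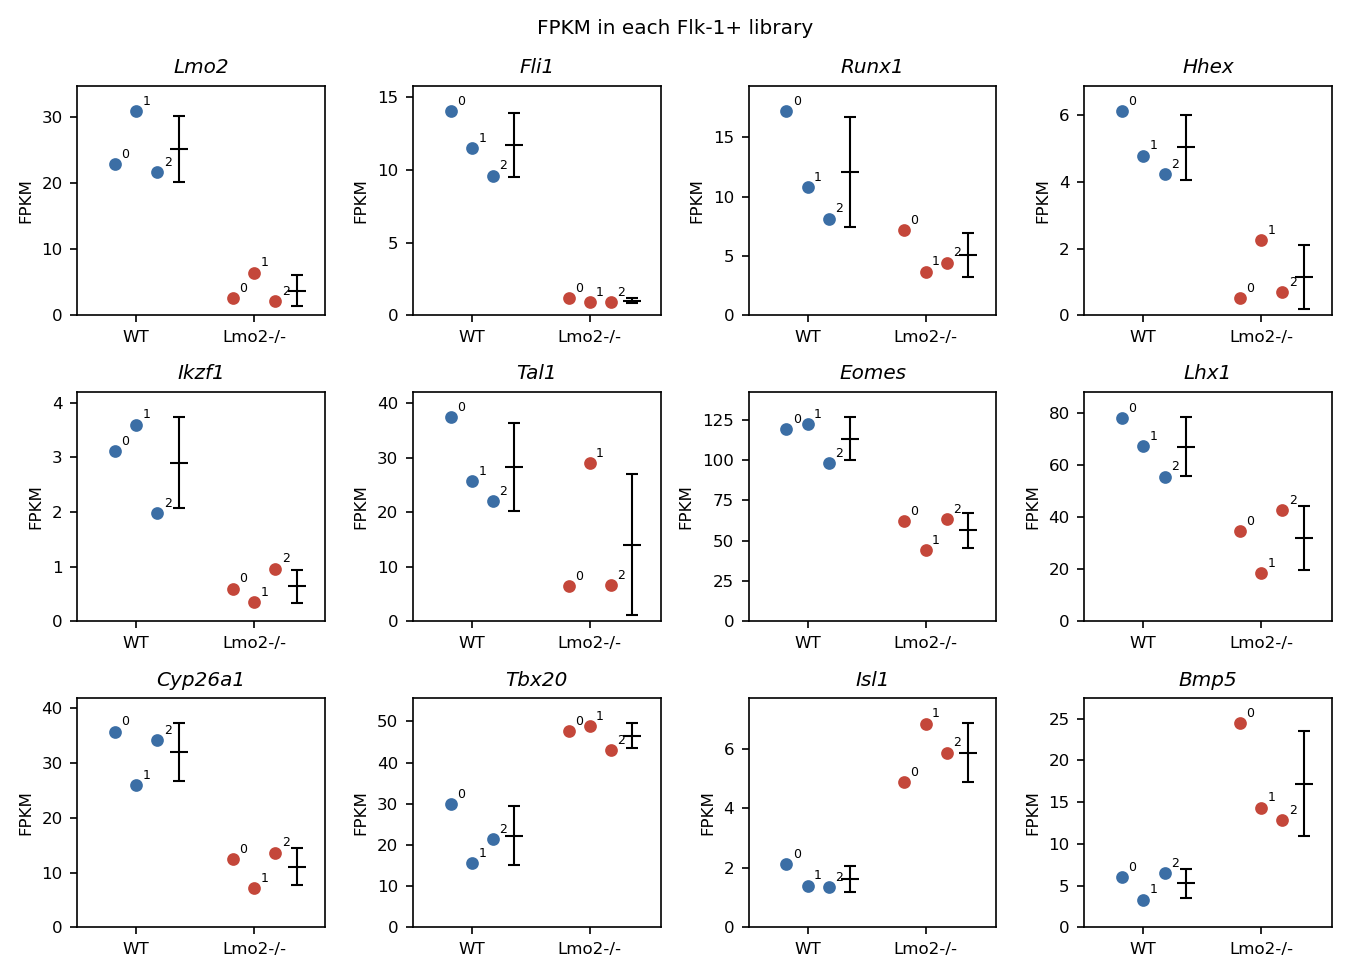
FPKM of 12 genes in each Flk-1+ library (numbered points; WT in blue, Lmo2-/- in red) with the mean and SD of 3 libraries beside them. In all genes but Tal1 the WT and Lmo2-/- points do not overlap, and for Tal1 it is library 1 of Lmo2-/- that lies among the WT values.

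Genes of the LMO2 complex were mixed. Of 15 tested genes of the complex and its relatives, Lmo2, Runx1 and Gata1 were lower in every Lmo2-/- library (20%, against 4.14% of all tested genes). Ldb2 was higher in every Lmo2-/- library (6.67%, against 4.02%). The median was -0.37 (-0.10 without WT 0 and Lmo2-/- 1). Without WT 0 and Lmo2-/- 1, 7 of the 15 (46.7%) were lower in both remaining Lmo2-/- libraries, against 14.8% of all tested genes. Lmo2, Runx1 and Gata1 are among these by construction. Tal1, the basic helix-loop-helix partner, had 37.4, 25.6 and 21.98 FPKM in WT cells and 6.51, 29.02 and 6.64 FPKM in Lmo2-/- cells, so that libraries 0 and 2 were low and library 1 was at the WT level. Gata2, the GATA factor of early progenitors, had 31.4, 12.6 and 6.93 FPKM in WT cells and 3.44, 9.78 and 3.24 FPKM in Lmo2-/- cells, and the groups overlapped in the same way. The core adaptor Ldb1 had 34.6, 99.6 and 35.5 FPKM in WT cells and 37.4, 54.3 and 103 FPKM in Lmo2-/- cells, with the highest values in library 1 of WT and library 2 of Lmo2-/-. Its paralogue Ldb2 had 1.81, 3.22 and 2.06 FPKM in WT cells and 4.69, 5.52 and 7.59 FPKM in Lmo2-/- cells, a log2 fold change of 1.04 (SE 0.36). The E protein genes Tcf3, Tcf4 and Tcf12 overlapped, with log2 fold changes from 0.19 to 0.38, as did the single-stranded DNA binding partners Ssbp2, Ssbp3 and Ssbp4.

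Among 13 tested ETS and SOXF factors, Fli1 and Etv2 were lower (15.4%, against 4.14% of all tested genes) and 0 were higher in every Lmo2-/- library. The median was -0.17 (-0.04 without WT 0 and Lmo2-/- 1). Etv2, the factor that starts the endothelial and blood programme in Flk-1+ mesoderm, had 10.96, 8.47 and 6.24 FPKM in WT cells and 3.57, 6.13 and 3.25 FPKM in Lmo2-/- cells (log2 fold change -0.86, SE 0.37). Lmo2-/- 1 came close to the lowest WT library. Sox7, a SOXF factor of early vascular progenitors, had 25.99, 11.3 and 6.95 FPKM in WT cells and 3.28, 18.7 and 2.59 FPKM in Lmo2-/- cells, again with Lmo2-/- 1 among the WT values. Erg had 3.34, 22.4 and 11.1 FPKM in WT, 3.87 FPKM in Lmo2-/- 0 and 7.06 FPKM in Lmo2-/- 2, and was listed at 0 in Lmo2-/- 1. The general ETS factors Ets1, Elf2 and Gabpa overlapped, with log2 fold changes of -0.17, 0.04 and 0.15.

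Of 13 tested endothelial genes, 3 were lower (23.1%, against 4.14% of all tested genes) and 0 higher in every Lmo2-/- library. The median was -0.56 (-0.51 without WT 0 and Lmo2-/- 1). The separated genes were Esam, an adhesion protein of tight junctions, Plvap, which forms the diaphragms of fenestrae, and Ecscr, a surface regulator of migration. Their highest WT values were 3.62 FPKM for Esam, 1.36 FPKM for Plvap and 2.28 FPKM for Ecscr, close to the filter on low values. Esam and Plvap reached 1 FPKM in WT libraries only. The better expressed VEGF receptor genes Flt1 and Flt4 overlapped, with log2 fold changes of -0.56 and -0.71, and Cdh5, the endothelial cadherin, overlapped with -0.77. Pecam1 and Eng had positive values, 0.47 and 0.48, with Lmo2-/- 1 highest in both. Of 12 tested Notch pathway genes, 0 were separated, and their median was 0.06 (0.07 without WT 0 and Lmo2-/- 1).

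Several primitive streak genes were also lower. Of 14 tested, 5 were lower (35.7%, against 4.14% of all tested genes) and 0 higher in every Lmo2-/- library, with a median of -0.44 (-0.35 without WT 0 and Lmo2-/- 1). The 5 were Eomes, Lhx1, Evx1, Sp5 and Tdgf1. Tdgf1 also stands in the pluripotency and cardiac lists and Sp5 in the Wnt list, so these counts are not independent. Eomes, a T-box factor of mesendoderm, had 119, 122 and 98.3 FPKM in WT cells and 62.2, 44.2 and 63.4 FPKM in Lmo2-/- cells. The gap between the groups was wider than the range within either, and the log2 fold change was -1.001 (SE 0.34). Lhx1, a LIM homeobox factor of early mesoderm, had 78.02, 67.2 and 55.5 FPKM in WT cells and 34.7, 18.6 and 42.8 FPKM in Lmo2-/- cells (log2 fold change -1.105, SE 0.38), lowest in Lmo2-/- 1. Evx1, a homeobox gene of the posterior streak, had 21.4, 8.96 and 9.02 FPKM in WT cells and 7.16, 7.93 and 7.55 FPKM in Lmo2-/- cells. Its 3 Lmo2-/- values were nearly equal and lay just under WT libraries 1 and 2.

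Sp5, a Wnt target of the streak, was separated at low FPKM with a log2 fold change of -0.79, which became -0.29 without WT 0 and Lmo2-/- 1. T, the streak factor Brachyury, had 122, 78.8 and 43.3 FPKM in WT cells and 19.2, 64.6 and 26.2 FPKM in Lmo2-/- cells, and Mixl1, a homeobox factor of mesendoderm, had 122, 30.6 and 30.9 FPKM in WT cells and 10.9, 37.02 and 14.7 FPKM in Lmo2-/- cells. In both genes the groups overlapped, WT 0 was the highest library, and Lmo2-/- 1 was the highest of its group. Snai1, Wnt3, Fgf8 and Mesp1 overlapped with log2 fold changes between -0.08 and 0.12, while Foxh1, a Nodal signal partner, overlapped with 0.82.

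A few pluripotency genes persist into early mesoderm. Of 9 tested, Pou5f1 and Tdgf1 were lower (22.2%, against 4.14% of all tested genes) and 0 were higher in every Lmo2-/- library, with a median of -0.48 (-0.12 without WT 0 and Lmo2-/- 1). Pou5f1, which encodes OCT4, had 9.45, 13.6 and 7.91 FPKM in WT cells and 4.31, 2.62 and 5.53 FPKM in Lmo2-/- cells (log2 fold change -1.15, SE 0.37). Tdgf1, the Nodal co-receptor Cripto, had 49.1, 41.7 and 63.8 FPKM in WT cells and 37.3, 15.1 and 19.98 FPKM in Lmo2-/- cells (log2 fold change -1.14, SE 0.39). Its processed copy Tdgf1-ps1 had 44.3, 55.7 and 77.7 FPKM in WT cells and 30.5, 24.8 and 24.1 FPKM in Lmo2-/- cells, and fragments of the near-identical copies could have been divided between them. Lin28a, at a high level, had 64.8, 35.1 and 46.8 FPKM in WT cells and 55.8, 47.7 and 44.7 FPKM in Lmo2-/- cells, and the groups overlapped. Of 6 tested endoderm genes, Cer1 and Epcam were lower in every Lmo2-/- library, with log2 fold changes of -1.02 and -0.56; the latter was -0.13 without WT 0 and Lmo2-/- 1.

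Genes of the cardiac list, which holds transcription factors and other regulators such as Smarcd3 and Tdgf1, mostly went the other way. Of 16 tested, 6 were higher in every Lmo2-/- library (37.5%, against 4.02% of all tested genes) and 1 was lower, 15 had a log2 fold change above 0, and the median was 0.73. Without WT 0 and Lmo2-/- 1 the median was 0.66, and 9 of 16 (56.2%) were higher in both remaining Lmo2-/- libraries, where 18% of all tested genes were. The 6 genes separated over all libraries are among the 9 by construction. The member that was lower is Tdgf1, which also stands in the primitive streak and pluripotency lists.

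Tbx20, a T-box factor of the heart fields, had 29.9, 15.6 and 21.5 FPKM in WT cells and 47.6, 48.8 and 43.1 FPKM in Lmo2-/- cells. Its Lmo2-/- libraries were within a few FPKM of each other and all above the highest WT library, and the log2 fold change was 1.07 (SE 0.34) and 1.26 without WT 0 and Lmo2-/- 1. Isl1, a LIM homeobox factor of the second heart field, had 2.12, 1.401 and 1.36 FPKM in WT cells and 4.87, 6.85 and 5.87 FPKM in Lmo2-/- cells (log2 fold change 1.39, SE 0.35). Tbx2, a T-box repressor of the chamber programme, had 1.37, 3.103 and 2.36 FPKM in WT cells and 5.69, 9.699 and 9.44 FPKM in Lmo2-/- cells (log2 fold change 1.51, SE 0.38). For Isl1 the gap between the groups was wider than the range within either, and for Tbx2 it was narrower than the range of the Lmo2-/- libraries.

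Smarcd3, the cardiac subunit of the BAF chromatin remodelling complex, had 4.61, 7.82 and 6.22 FPKM in WT cells and 12.8, 15.9 and 17.6 FPKM in Lmo2-/- cells (log2 fold change 1.202, SE 0.34). Hand2, a basic helix-loop-helix factor of heart and limb, had 5.84, 11.03 and 5.89 FPKM in WT cells and 11.3, 12.1 and 21.7 FPKM in Lmo2-/- cells, and Lmo2-/- 0 lay just above the highest WT library. Gata5, a factor of endocardial and cardiac precursors, had 0, 0.133 and 0.0624 FPKM in WT cells and 0.413, 2.14 and 2.53 FPKM in Lmo2-/- cells, near the floor of the measurement in WT. It passed the filter through Lmo2-/- libraries alone. The members that overlapped include the best expressed ones. Hand1 had 87.9, 124 and 48.9 FPKM in WT cells and 84.5, 257 and 191 FPKM in Lmo2-/- cells, Gata4 had 109.8, 69.3 and 49.6 FPKM in WT cells and 68.3, 114 and 99.8 FPKM in Lmo2-/- cells, and Tbx3 had 63.1, 37.8 and 39.99 FPKM in WT cells and 43.4, 53.2 and 43.1 FPKM in Lmo2-/- cells. Their log2 fold changes were 0.98, 0.34 and 0.02.

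Contractile genes went in both directions. Of 10 tested sarcomere and calcium handling genes, Ryr2 and Myl4 were higher in every Lmo2-/- library (20%, against 4.02% of all tested genes). Atp2a2 was lower (10%, against 4.14%), and the median was 0.26 (0.13 without WT 0 and Lmo2-/- 1). Ryr2 reached 1 FPKM in Lmo2-/- libraries only. Myl4, an atrial and embryonic myosin light chain, had 1.26, 2.53 and 1.58 FPKM in WT cells and 2.83, 4.39 and 5.51 FPKM in Lmo2-/- cells (log2 fold change 0.903, SE 0.38). Tnnt2, cardiac troponin T, was listed at 0 in WT 0 and in Lmo2-/- 1 and had 1.19 and 0.208 FPKM in WT 1 and 2 against 4.95 and 6.88 FPKM in Lmo2-/- 0 and 2, so its direction rested on 4 libraries. Myl7 had a log2 fold change of 0.37 that became -0.15 without WT 0 and Lmo2-/- 1. Of 10 smooth muscle genes, 0 were separated, with a median of -0.17 (-0.11 without WT 0 and Lmo2-/- 1).

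**Figure D4:**
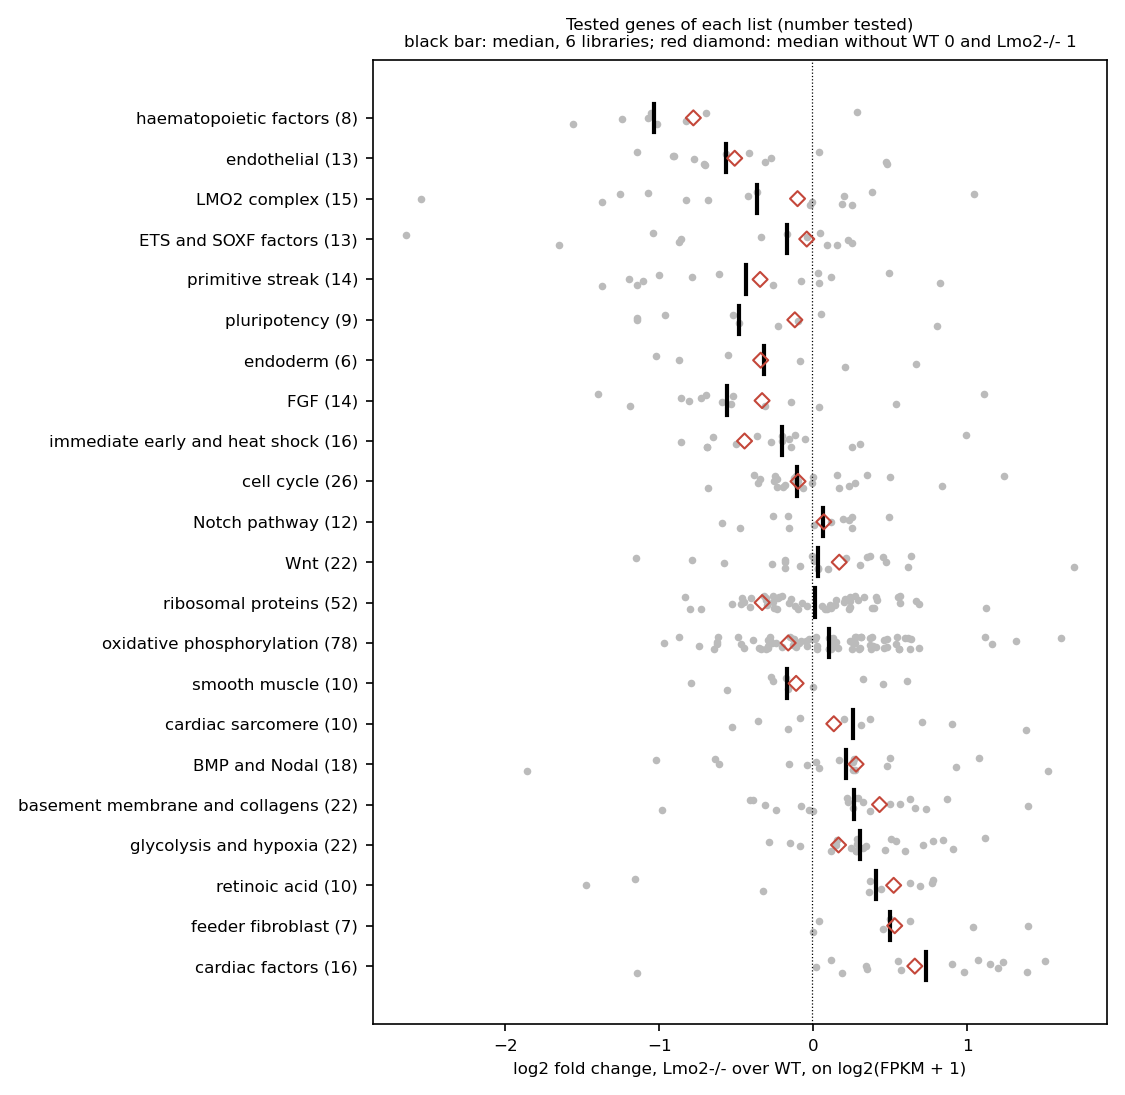
log2 fold change of Lmo2-/- over WT (x axis, on log2(FPKM + 1)) for each tested gene of 22 lists (grey points; number of tested genes in brackets), with the list median over 6 libraries (black bar) and without WT 0 and Lmo2-/- 1 (red diamond). Haematopoietic factors have the lowest median, -1.04, and cardiac factors the highest, 0.73; the dotted line is the median of all tested genes.

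Some genes of the FGF pathway were lower in Lmo2-/- cells. Of 14 tested FGF pathway genes, 4 were lower (28.6%, against 4.14% of all tested genes) and 1 was higher (7.14%, against 4.02%) in every Lmo2-/- library. The median was -0.56 (-0.33 without WT 0 and Lmo2-/- 1). Dusp6, the phosphatase that limits ERK, had 13.9, 5.998 and 8.77 FPKM in WT cells and 4.14, 2.22 and 4.19 FPKM in Lmo2-/- cells (log2 fold change -1.19, SE 0.40). Etv4, an ETS factor induced by FGF, had 6.197, 17.2 and 5.205 FPKM in WT cells and 3.36, 0.984 and 4.100 FPKM in Lmo2-/- cells (log2 fold change -1.400, SE 0.51), lowest in Lmo2-/- 1. Spry4 and Il17rd, which inhibit the pathway, were also lower in every Lmo2-/- library, with log2 fold changes of -0.86 and -0.59. The inhibitor genes Spred1 and Spry2 overlapped, with -0.73 and -0.31.

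The ligand genes Fgf3 and Fgf10 overlapped, with -0.81 and -0.69. The member that was higher is a receptor gene, Fgfr3, with 5.82, 5.59 and 2.15 FPKM in WT cells and 7.42, 10.2 and 13.96 FPKM in Lmo2-/- cells (log2 fold change 1.105, SE 0.41). Fgfr1 overlapped with 0.54.

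BMP and Nodal genes were divided. Of 18 tested, 3 were higher (16.7%, against 4.02% of all tested genes) and 4 lower (22.2%, against 4.14%) in every Lmo2-/- library. The median was 0.21 (0.28 without WT 0 and Lmo2-/- 1). Bmp5, a BMP ligand of early mesoderm and heart, had 6.04, 3.31 and 6.54 FPKM in WT cells and 24.4, 14.4 and 12.9 FPKM in Lmo2-/- cells, with every Lmo2-/- library well above the highest WT library; its log2 fold change was 1.52 (SE 0.38). Bmp2, another ligand, had 20.99, 15.4 and 17.9 FPKM in WT cells and 13.6, 8.64 and 12.5 FPKM in Lmo2-/- cells (log2 fold change -0.61, SE 0.33). Msx2, a homeobox target of BMP, had 18.7, 15.2 and 12.4 FPKM in WT cells and 20.2, 55.4 and 23.6 FPKM in Lmo2-/- cells, with Lmo2-/- 1 far above the rest, and Id2, another BMP target, was separated with 1.08.

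The Nodal antagonist gene Lefty2 had 5.05, 3.98 and 3.44 FPKM in WT cells and 0.7397, 0.344 and 0.195 FPKM in Lmo2-/- cells. It had the lowest log2 fold change of the list, -1.86 (SE 0.37; -1.71 without WT 0 and Lmo2-/- 1), although both levels were low. Cer1, an antagonist of Nodal, BMP and Wnt, and Fst, an activin antagonist, were lower with -1.02 and -0.64. The ligand Bmp4 overlapped at 48.8, 71.9 and 31.9 FPKM in WT cells and 39.8, 51.6 and 77.8 FPKM in Lmo2-/- cells, and Smad6, Smad7, Id1 and Id3 overlapped with log2 fold changes between 0.02 and 0.26.

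Retinoic acid genes differed most at the enzyme that clears the signal. Cyp26a1, which degrades retinoic acid, had 35.7, 25.97 and 34.2 FPKM in WT cells and 12.4, 7.19 and 13.6 FPKM in Lmo2-/- cells. The lowest WT value exceeded the highest Lmo2-/- value by more than the spread of the Lmo2-/- group, with means of 31.9 ± 5.21 and 11.1 ± 3.42 FPKM (SD, n = 3 each) and a log2 fold change of -1.48 (SE 0.35), or -1.14 without WT 0 and Lmo2-/- 1. Of the 10 tested genes of this list, Cyp26a1 and the retinol carrier Rbp4 were lower and 2 were higher in every Lmo2-/- library, and the median was 0.40 (0.52 without WT 0 and Lmo2-/- 1). The retinoic acid binding protein gene Crabp1 and the responsive Hoxb1 overlapped, with 0.77 and 0.63, and the receptors Rara and Rarg overlapped with 0.37 and 0.36.

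Among 22 tested Wnt genes, 2 were higher (9.09%, against 4.02% of all tested genes) and 2 lower (9.09%, against 4.14%) in every Lmo2-/- library. The median was 0.03 (0.17 without WT 0 and Lmo2-/- 1). Rnf43, which removes Wnt receptors from the surface, had 0.871, 0.643 and 0.848 FPKM in WT cells and 3.43, 6.69 and 4.605 FPKM in Lmo2-/- cells (log2 fold change 1.69, SE 0.37). The secreted antagonist Sfrp1 was higher with 0.62. The ligand Wnt2b, with 9.47, 5.95 and 4.49 FPKM in WT cells and 1.36, 2.87 and 2.98 FPKM in Lmo2-/- cells, was lower (log2 fold change -1.15, SE 0.39), as was Sp5. Axin2 and Lef1, common readouts of the pathway, overlapped with -0.09 and 0.37. Of 20 receptor tyrosine kinase and ephrin genes, Efna1 and Ephb2 were higher in every Lmo2-/- library (10%, against 4.02% of all tested genes), with 0.98 and 0.89. The arterial ligand gene Efnb2 was lower (5%, against 4.14%), with -0.63.

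The largest differences among well expressed genes reached beyond these lists. Of the 15 largest in the lower direction, Fli1, Lmo2, Cyp26a1, Pou5f1, Tdgf1 and Lhx1 have been described. Wnk4, a kinase known for ion transport in the kidney, had 27.3, 31.6 and 12.7 FPKM in WT cells and 2.02, 8.75 and 2.12 FPKM in Lmo2-/- cells (log2 fold change -2.37, SE 0.52), the lowest after Fli1 and Lmo2. Lgr5, an R-spondin receptor that amplifies Wnt signals, had 14.99, 28.9 and 28.3 FPKM in WT cells and 10.6, 3.97 and 9.05 FPKM in Lmo2-/- cells (log2 fold change -1.53, SE 0.42). In both genes library 1 of Lmo2-/- departed from libraries 0 and 2, upward in Wnk4 and downward in Lgr5.

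Minos1, a subunit of the complex that shapes mitochondrial cristae, had 20.5, 31.3 and 26.3 FPKM in WT cells and 5.22, 12.97 and 7.702 FPKM in Lmo2-/- cells. Zic2, a zinc finger factor of gastrulation, had 19.7, 17.1 and 15.5 FPKM in WT cells and 6.69, 6.37 and 9.71 FPKM in Lmo2-/- cells, and Adam23, a membrane adhesion protein, had 31.5, 23.8 and 20.05 FPKM in WT cells and 10.2, 12.1 and 5.83 FPKM in Lmo2-/- cells. Their log2 fold changes were -1.55, -1.12 and -1.36. The remaining 4 were Clic6 (-1.67), Enc1 (-1.25), Slc37a3 (-1.11) and Rrp8 (-1.08). Clic6 was separated by a narrow gap, since WT 0 at 3.62 FPKM lay just above Lmo2-/- 2 at 3.29 FPKM.

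Of the 15 largest in the higher direction, the netrin receptor gene Unc5c had 14.8, 4.93 and 8.01 FPKM in WT cells and 32.1, 31.4 and 27.03 FPKM in Lmo2-/- cells (log2 fold change 1.72, SE 0.40), with nearly equal Lmo2-/- libraries. Frem2, a basement membrane adhesion protein of developing epithelia, had 4.99, 3.31 and 2.61 FPKM in WT cells and 13.4, 9.25 and 12.5 FPKM in Lmo2-/- cells (log2 fold change 1.47, SE 0.35). The semaphorin gene Sema6c had 1.93, 6.12 and 4.98 FPKM in WT cells and 10.1, 16.2 and 12.8 FPKM in Lmo2-/- cells, again a guidance molecule. Unc13a, a synaptic vesicle priming factor, had the largest log2 fold change of the 15, 1.87 (SE 0.66), and had 0.378, 10.3 and 5.101 FPKM in WT cells and 13.7, 12.2 and 23.1 FPKM in Lmo2-/- cells.

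Col1a1, the fibrillar collagen chain of mesenchyme and fibroblasts, had 5.799, 12.8 and 4.54 FPKM in WT cells and 19.03, 15.9 and 26.9 FPKM in Lmo2-/- cells (log2 fold change 1.395, SE 0.41). Cdkn1c, an imprinted inhibitor of cyclin-dependent kinases, had 15.8, 8.899 and 4.81 FPKM in WT cells and 17.8, 30.3 and 20.5 FPKM in Lmo2-/- cells, and Lmo2-/- 0 lay just above WT 0. Aldoc, a glycolytic aldolase, had 1.74, 6.47 and 2.12 FPKM in WT cells and 10.7, 9.43 and 10.4 FPKM in Lmo2-/- cells (log2 fold change 1.48). Dhcr7, the last enzyme of cholesterol synthesis, had 13.7, 16.5 and 10.4 FPKM in WT cells and 23.1, 61.6 and 26.6 FPKM in Lmo2-/- cells, with Lmo2-/- 1 far above the other libraries. Bmp5 and Smarcd3 stand above, and the other 5, Zfp462, Lppr3, Cyp2s1, Lhfpl2 and Trnau1ap, had log2 fold changes between 1.21 and 1.64.

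**Figure D5:**
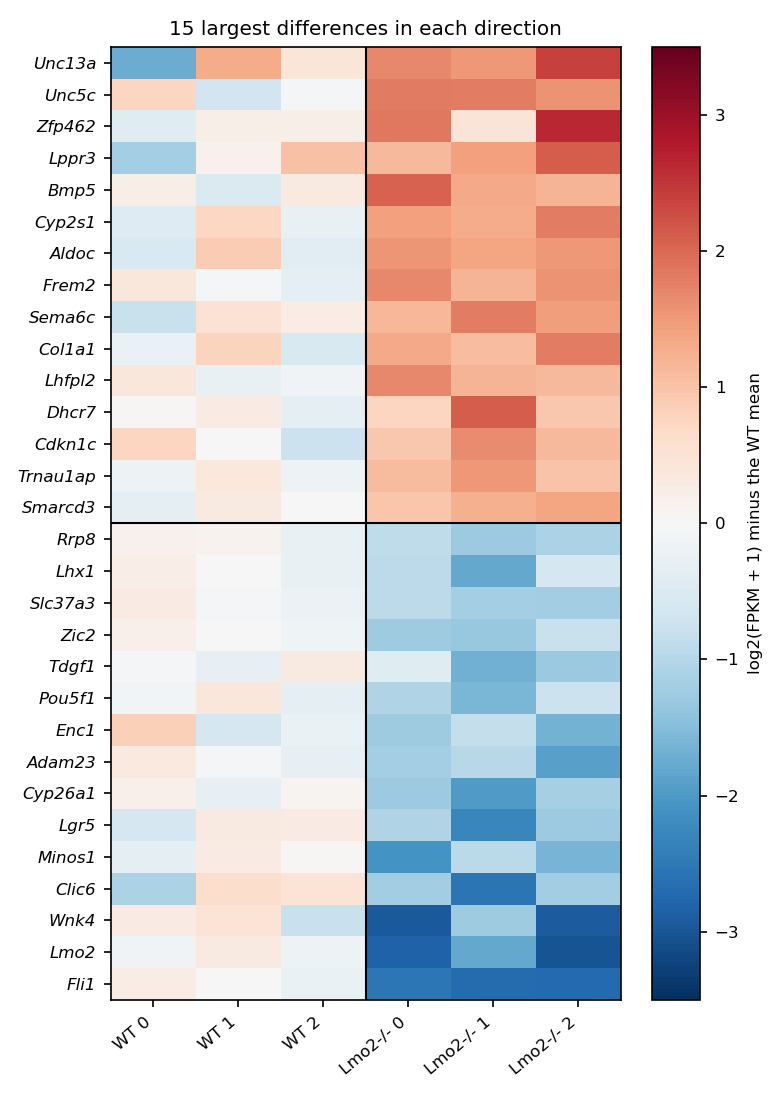
The 15 largest differences in each direction among separated genes with a mean above 10 FPKM, as log2(FPKM + 1) of each library minus the mean of the 3 WT libraries (red higher, blue lower). Every Lmo2-/- column is on the same side of every WT column for each gene, while on this log2 scale WT libraries differ among themselves most in Unc13a.

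Some fibroblast genes were also higher in Lmo2-/- cells. Of 7 tested markers of the feeder fibroblasts, Col1a1, Twist2 and Mmp2 were higher and 0 lower in every Lmo2-/- library, with a median of 0.50 (0.53 without WT 0 and Lmo2-/- 1). Mmp2, a matrix metalloproteinase, had 13.8, 14.1 and 12.2 FPKM in WT cells and 17.3, 19.1 and 21.7 FPKM in Lmo2-/- cells, and Twist2, a mesenchymal factor, had 0.952, 0.232 and 0.411 FPKM in WT cells and 1.99, 2.35 and 1.93 FPKM in Lmo2-/- cells. The fibroblast surface marker Thy1 had 1.85, 1.04 and 0.859 FPKM in WT cells and 1.35, 2.18 and 0.569 FPKM in Lmo2-/- cells and overlapped. These genes are also made by embryonic mesenchyme. The part of residual feeder cells in the higher cardiac and matrix genes was not tested.

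Of 22 tested basement membrane and collagen genes, 4 were higher (18.2%, against 4.02% of all tested genes) and 1 lower (4.55%, against 4.14%) in every Lmo2-/- library. The median was 0.26 (0.43 without WT 0 and Lmo2-/- 1). The higher ones were Col1a1, Col4a6, Col6a1 and Sparc, and Sparc, a matrix glycoprotein at a high level, had 48.3, 49.5 and 39.2 FPKM in WT cells and 56.8, 84.01 and 78.8 FPKM in Lmo2-/- cells (log2 fold change 0.66, SE 0.33). Of 22 glycolysis and hypoxia genes, Ndrg1, Pdk1, Slc2a1 and Egln3 were higher (18.2%, against 4.02% of all tested genes) and 0 lower in every Lmo2-/- library. The median was 0.31 (0.16 without WT 0 and Lmo2-/- 1). Ndrg1, a stress response gene induced by low oxygen, had 3.33, 4.03 and 4.71 FPKM in WT cells and 10.1, 12.5 and 7.48 FPKM in Lmo2-/- cells (log2 fold change 1.12, SE 0.34). Slc2a1, the glucose transporter GLUT1, had 63.8, 70.1 and 53.5 FPKM in WT cells and 82.3, 110.0 and 119 FPKM in Lmo2-/- cells.

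Housekeeping groups had shares of separated genes near or below those of all tested genes, 4.02% higher and 4.14% lower. Of 26 cell cycle genes, Cdkn1c was higher and Cdk1 lower in every Lmo2-/- library (3.85% each), and the median was -0.11 (-0.10 without WT 0 and Lmo2-/- 1). Of 78 oxidative phosphorylation genes 5 were higher (6.41%) and 3 lower (3.85%), with a median of 0.10 that became -0.16 without WT 0 and Lmo2-/- 1. For 52 ribosomal protein genes the median was 0.01 with 6 libraries and -0.33 without WT 0 and Lmo2-/- 1, and for 45 histone genes 0.31 and -0.31, so that the sign of these medians also changed. Outside the housekeeping groups, of 18 imprinted genes, Cdkn1c was higher and 0 lower in every Lmo2-/- library. Yet 14 had a log2 fold change above 0, and the median was 0.28 (0.48 without WT 0 and Lmo2-/- 1). Without these 2 libraries 10 of the 18 (55.6%) were higher in both Lmo2-/- libraries, against 18% of all tested genes. Cdkn1c is among the 10 by construction. The growth factor gene Igf2, Grb10, which restrains growth signalling, and the Notch ligand relative Dlk1 overlapped over 6 libraries, with log2 fold changes of 1.15, 1.52 and 1.11. The immediate early genes Egr1, Atf3, Jun and Fosl2 were lower in every Lmo2-/- library. They were 4 of 16 tested immediate early and heat shock genes (25%, against 4.14% of all tested genes), with a median of -0.21 (-0.45 without WT 0 and Lmo2-/- 1).

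Levels in Tal1-/- Flk-1+ cells are set beside these, since that comparison shares the WT libraries. Fli1 had 0.5105 FPKM, 1.13 FPKM and 1.73 FPKM in the 3 Tal1-/- libraries, Cyp26a1 11.6, 6.96 and 12.2 FPKM, and Eomes 40.1, 54.3 and 63.6 FPKM. These values carry no test, since the genes had been described for their Lmo2-/- difference from the same WT libraries. Bmp5 had 10.5, 8.38 and 6.04 FPKM in Tal1-/-, which lay between the WT and the Lmo2-/- values apart from the lowest. Tbx20 had 47.5, 30.6 and 28.9 FPKM in Tal1-/-. In HE1, where Lmo2 itself did not separate the libraries by label, Fli1 had 72.0 and 79.6 FPKM in the 2 libraries labelled WT and 50.3 and 35.2 FPKM in the 2 labelled Lmo2-/-, all above the 6 Flk-1+ libraries. For Runx1 the order in HE1 was the opposite of that in Flk-1+ cells, with 5.91 and 5.42 FPKM in the libraries labelled WT and 13.1 and 7.83 FPKM in those labelled Lmo2-/-. Tal1 had 37.6 and 27.8 FPKM against 56.2 and 52.2 FPKM in the same order. Tbx20 had 32.5 and 23.5 FPKM against 190.2 and 116 FPKM, and Hhex overlapped.

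Promoter sequence was looked at for the separated genes with a mean above 10 FPKM, since the LMO2 complex reads an E-box beside a GATA motif. The window was the 250 bases before each RefSeq start in GRCm38.p6, and 156 windows of 118 lower genes and 127 windows of 89 higher genes were found. The composite of CANNTG, any 9 bases and GATA, on either strand, was in 1 of the 156 (0.641%) and in 2 of the 127 (1.57%), against 0.229% of 10053 windows of all tested genes and 0.508% of all 32851 windows. The GATA motif AGATAA was in 2.56% of the lower, 7.87% of the higher and 5.43% of the tested windows, and 9.99% of all windows. The E-box CAGATG was in 10.3%, 13.4%, 9.52% and 14.4% in the same order. An AGATAA or CAGATG can lie within a composite match. The promoter set held no window for Fli1 or Lmo2, so neither gene was searched.

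The sequences below show the composite in a lower and a higher gene, then the separate motifs in a cardiac gene and a blood gene without a match. They run 5′ to 3′ on the strand of the gene, and capitals mark the matched composite, AGATAA or CAGATG on either strand. The windows are Slc37a3 at chr6:39377708-39377957 (minus strand), Pdk1 at chr2:71874654-71874903 (plus), Hand2 at chr8:57320733-57320982 (plus) and the distal start of Runx1 at chr16:92826075-92826324 (minus).
Slc37a3: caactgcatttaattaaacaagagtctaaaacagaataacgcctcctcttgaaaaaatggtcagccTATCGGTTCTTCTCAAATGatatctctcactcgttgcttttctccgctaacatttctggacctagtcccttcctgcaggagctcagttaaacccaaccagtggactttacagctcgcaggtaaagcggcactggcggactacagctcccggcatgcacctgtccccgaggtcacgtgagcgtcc
Pdk1: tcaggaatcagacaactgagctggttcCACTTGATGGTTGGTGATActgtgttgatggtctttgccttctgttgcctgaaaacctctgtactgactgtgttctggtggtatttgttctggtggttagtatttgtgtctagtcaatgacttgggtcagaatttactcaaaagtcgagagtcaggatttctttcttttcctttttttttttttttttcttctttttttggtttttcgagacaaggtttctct
Hand2: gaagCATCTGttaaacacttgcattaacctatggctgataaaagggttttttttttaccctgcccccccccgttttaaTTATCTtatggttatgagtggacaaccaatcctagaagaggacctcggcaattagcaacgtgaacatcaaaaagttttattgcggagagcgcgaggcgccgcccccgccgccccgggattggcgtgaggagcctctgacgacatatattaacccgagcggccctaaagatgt
Runx1: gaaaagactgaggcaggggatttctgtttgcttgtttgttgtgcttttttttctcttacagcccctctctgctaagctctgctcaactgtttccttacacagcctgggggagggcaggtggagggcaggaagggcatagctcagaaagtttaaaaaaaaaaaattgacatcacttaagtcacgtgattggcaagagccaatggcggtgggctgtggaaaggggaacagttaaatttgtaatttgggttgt
In Slc37a3, which encodes a sugar phosphate exchanger of the endoplasmic reticulum, the composite begins 184 bases before the start on the opposite strand, and the gene had 22.2, 16.97 and 15.3 FPKM in WT cells and 8.96, 7.27 and 7.17 FPKM in Lmo2-/- cells. In Pdk1, a kinase that limits pyruvate use, it begins 223 bases before a downstream start, and the gene had 6.19, 12.3 and 11.9 FPKM in WT cells and 14.3, 21.8 and 19.5 FPKM in Lmo2-/- cells. In Hand2 the CAGATG match begins 246 bases and the AGATAA match 172 bases before the start, both on the opposite strand. Neither Runx1 window, distal or proximal, held a match. A match is a string of letters and not a bound site.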

How the data were processed

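RNA was measured by RNAseq libraries of WT and Lmo2-/- Flk-1+ cells. The deposited values are FPKM, for which the authors aligned reads to GRCm38/mm10 with TopHat 2.0.9. They assembled transcripts with Cufflinks 2.0.0, with quartile normalisation and effective length correction, and combined them with Cuffmerge. The FPKM were normalised with Cuffnorm. Their comparison table (fold changes, p-values and q-values from Cuffdiff 2.0.1) was not used, nor were the ChIP-seq peaks. Counts are not given, so the depth per library is unknown.

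Loci over 200 bp that reached 1 FPKM in 2 or more of the 6 libraries entered the fit, on log2(FPKM + 1) with limma 3.58.1 (R 4.3.3), using a mean-variance trend and Benjamini-Hochberg adjustment. Fold changes on this scale understate the change of low genes. A gene of low level could pass the filter through 1 genotype alone, which favours separation among such genes. The test was checked on simulated data. Gene lists are described by counts of separated genes and by medians, without a set test. Genes were named by 4 parts of a rule: Lmo2, genes the study names, the 15 largest differences in each direction among separated genes with a mean above 10 FPKM (predicted models, Rik clones, small RNAs and pseudogenes left out by symbol), and up to 6 members of each list by size of the limma statistic. Further list members were named after their values were seen, and a few genes are not reported here. The members and lists were chosen with earlier results of these data known. The comparison without WT 0 and Lmo2-/- 1, and 3 further lists, were chosen after seeing the data.

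Coordinates of loci are assembled intervals, and 17934 of 45250 loci share an interval with another, though each has its own value. Promoter sequences are from RefSeq for GRCm38.p6. Alternatives were another pseudocount, other filters, quantile or median scaling, fits with all Flk-1+ or all libraries, no trend, array weights, a replicate block and leaving out each library.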

Additional observations from a re-analysis of the deposited data

How the results depend on the processing

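The count of adjusted calls was 0 with 6 libraries and under the other alternatives, except 2 with limma array weights (Lmo2 and Fli1), 0 to 3 when 1 library was left out (all of them predicted models or small RNAs), and 1 without WT 0 and Lmo2-/- 1 (Snora68). An unadjusted p below 0.05 was found for 157 genes with a filter of 10 FPKM in 1 library, which left 5925 genes to test, and for 280 with all 13 libraries in the fit and 862 with array weights, and for 351 to 572 genes when 1 library was left out; the cause was not tested. With the filter of 10 FPKM, 167 genes were higher and 227 lower in every Lmo2-/- library. Leaving out 1 library gave 751 to 1458 higher and 973 to 1177 lower genes, and leaving out WT 0 and Lmo2-/- 1 gave 2184 and 1793, since fewer libraries separate more easily. Without WT 0 alone 1458 genes were higher. The library numbers did not pair the samples: the deviations of same-numbered libraries from their group means correlated at -0.19, -0.20 and -0.02. WT 0 with Lmo2-/- 1, WT 1 with Lmo2-/- 2 and WT 2 with Lmo2-/- 0 correlated at 0.36, 0.34 and 0.32; no source pairs these libraries and no fit was made on them. A fit with the number as a replicate block gave 0 adjusted and 377 unadjusted calls. Of the fold changes of named genes under these alternatives, 3200 kept their direction and side of the threshold, 66 changed sign and 2 passed the threshold. Of the list medians, 494 stayed and 66 moved. With 3 libraries a group, 1 ES cell line per genotype and no counts, large differences could be missed as well as small ones, and values of a few FPKM may rest on few fragments.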

Other observations

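These 3 groups of genes were picked after their values had been seen, so their counts only describe these libraries; of all tested genes, 4.02% were higher and 4.14% lower in every Lmo2-/- library. Among 25 tested enzymes and carriers of sterol synthesis and transport, 8 were higher (32%) and 0 lower in every Lmo2-/- library, and 24 had a log2 fold change above 0, with a median of 0.50, or 0.51 without WT 0 and Lmo2-/- 1. An unadjusted limma p below 0.05 was found for 4 of them. Lss, which closes the sterol ring, had 22.4, 22.7 and 15.3 FPKM in WT cells and 30.6, 31.2 and 31.1 FPKM in Lmo2-/- cells (log2 fold change 0.62, SE 0.32), and its 3 Lmo2-/- libraries were nearly equal. Among the other higher genes were Dhcr7, Mvk, Scarb1, Npc1, Npc2 and Insig1.

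Among 72 tested factors that assemble ribosomes in the nucleolus, 14 were lower (19.4%) and 0 higher in every Lmo2-/- library, and 61 had a log2 fold change below 0, with a median of -0.30. An unadjusted limma p below 0.05 was found for 3 of them. Utp6, a subunit of the processome of the small ribosomal subunit, had 22.6, 20.6 and 25.8 FPKM in WT cells and 12.8, 13.8 and 13.5 FPKM in Lmo2-/- cells (log2 fold change -0.74, SE 0.31), with the groups well apart. Mak16, which acts on the large subunit, had a log2 fold change of -0.84. For the ribosomal proteins themselves the median was 0.01, but without WT 0 and Lmo2-/- 1 both medians were alike, -0.33 for the ribosomal proteins and -0.32 for the assembly factors.

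Of 32 tested ligands and receptors of axon guidance, 7 were higher and 2 lower in every Lmo2-/- library, with a median of 0.23 (0.41 without WT 0 and Lmo2-/- 1). Beside Unc5c and Sema6c, the higher genes were Plxna3, Sema6b, Unc5b, Sema5a and Plxnb2. The netrin receptor gene Unc5b had 20.2, 18.5 and 13.2 FPKM in WT cells and 20.7, 29.4 and 33.9 FPKM in Lmo2-/- cells (log2 fold change 0.66, SE 0.34). Plxna4 and Slit3 were lower.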
